A study of Arabidopsis thaliana with 38 samples.

Results

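Transcripts of the plastid and mitochondrial genomes were followed in RNA from nuclei of Arabidopsis thaliana embryos. The loci were those whose identifier starts with ATCG (plastid, 14 loci) or ATMG (mitochondrial, 92 loci), 106 of the 27826 loci in the deposited table. The nuclei had been captured by INTACT, a method that tags the nuclear envelope of a chosen cell type with a two-component label, and their RNA was amplified and hybridised to 38 one-colour arrays in 11 groups. After pollination by hand, embryos were collected 72 h later (16-cell stage, 16C), 81 h later (early globular stage, EG) and 100 h later (late globular stage, LG). At 72 h the groups were inner lower tier cells (ILT_16C, 3 arrays) and the embryo as a whole (EMB_16C, 3). The 81 h groups were the embryo (EMB_EG, 4), suspensor (SUS_EG, 3), ground tissue (GSC_EG, 4) and vascular cells (VSC_EG, 4). The 100 h groups were the embryo (EMB_LG, 4), suspensor (SUS_LG, 3), ground tissue (GSC_LG, 3), vascular cells (VSC_LG, 4) and a set labelled QC (QC_LG, 3). All plants were grown on soil at 22 °C in long days, and no strain, genotype, driver promoter or line is named in the labels. Per the series design the replicates were pooled, and p-values here refer to the spread from pool to pool.

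Plastids and mitochondria keep small genomes of their own. In plants the plastid genome encodes core proteins of the photosynthetic complexes, the large subunit of Rubisco, and parts of the plastid's ribosomes and RNA polymerase, while the mitochondrial genome encodes subunits of the respiratory chain and of the ATP synthase. Both also encode ribosomal and transfer RNAs, and most other proteins of both organelles come from nuclear genes. These transcripts are made inside the organelles and not in the nucleus. The nuclear chromosomes carry copies of organelle DNA, among them a large stretch of mitochondrial DNA inserted into chromosome 2 of Arabidopsis. No file and no table used here pairs the 106 identifiers with a gene name, so these loci are given by identifier, and a role is given only where the same row of values stands in the table for an annotated nuclear locus.

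Many of these values could not be assigned to an organelle or to the nucleus. In all 38 arrays the 14 plastid loci had 12 distinct rows of values and the 92 mitochondrial loci 90, and the 106 loci together had 101. The values of 33 mitochondrial and 5 plastid loci were identical, array by array, to those of a nuclear locus. All 33 of the mitochondrial partners lay in the chromosome 2 insertion, of which 97 loci were on the array, and the annotation gave 15 of the partners as transcribed pseudogenes, 9 as transfer RNA genes, 5 as protein coding and 4 as pseudogenes. Of the other 59 mitochondrial loci, 20 correlated over the 38 arrays with a locus of the insertion at a Pearson r over 0.9. One row was shared by all 3 genomes: the plastid locus ATCG00610, the mitochondrial locus ATMG00930 and the nuclear locus AT2G07748, a tRNA gene for tryptophan, had the same value in every array. The plastid loci ATCG00020, ATCG00140 and ATCG00670 shared their rows with the nuclear loci AT2G07688 and AT3G32990, both transcribed pseudogenes, and AT2G05935, a pseudogene, and ATCG00240 with AT3G20365, a pseudogene of a tyrosine tRNA. ATCG00970 was identical to ATCG01160, ATCG00990 to ATCG01140, ATMG00080 to ATMG00090 and ATMG00170 to ATMG00620. For such rows, RNA of the organelle and RNA of a nuclear copy cannot be told apart, and a shared row is 1 measurement, not 2.

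Organelle-encoded loci were among the brightest on the arrays, although the RNA was labelled as nuclear. Intensities are given on the log2 scale throughout. The mean over the 11 groups ran from 4.71 to 10.99 for the plastid loci, with 14 of 14 above the 90th and 8 above the 99th percentile of all loci. For the mitochondrial loci it ran from 1.60 to 10.8, with 64 of 92 above the 90th, 35 above the 99th and 5 below the 50th percentile. These percentiles place signals of different probe sets and are not a ranking of transcript amounts. The brightest plastid rows were ATCG00970 (10.99, shared with ATCG01160), ATCG00020 (10.88) and ATCG00140 (10.16), and the dimmest were ATCG00230 (4.71) and ATCG00610 (4.86). The brightest mitochondrial loci were ATMG01200 (10.81), ATMG01190 (10.68) and ATMG01120 (10.21), and the dimmest ATMG00800 (1.60), whose row is also that of a tRNA gene for glutamate on chromosome 2, and ATMG00770 (2.21). The brightest were also the steadiest: the SD between arrays of a group had a median of 0.493 for the 14 mitochondrial loci with a mean over 8, 0.865 for the 52 between 4 and 8, and 1.08 for the 26 under 4. For the plastid loci these medians were 0.497 over 8 (6 loci) and 1.12 between 4 and 8 (8 loci). ATMG01200 varied the least, from 0.65 between its lowest and highest group means.

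Array by array, the median of the plastid loci lay between 5.03 (QC_LG 3) and 9.17 (VSC_EG 3), and that of the mitochondrial loci between 3.92 (QC_LG 2) and 7.68 (GSC_LG 2), while the median of all loci moved only between 2.47 and 2.71. The plastid loci took 0.461% to 3.91% of the summed intensity of an array and the mitochondrial loci 1.91% to 6.54%. By group, the plastid median was highest in EMB_16C at 8.17 ± 0.824 (SD, n = 3), followed by VSC_EG at 7.83 ± 1.45 (n = 4) and GSC_EG at 7.56 ± 0.693 (n = 4). It was lowest in QC_LG at 6.09 ± 1.72 (n = 3), VSC_LG at 6.54 ± 0.306 (n = 4), SUS_LG at 6.57 ± 1.25 (n = 3) and ILT_16C at 6.59 ± 0.665 (n = 3). The mitochondrial median was highest in GSC_LG at 7.22 ± 0.409 (n = 3) and in EMB_16C at 6.58 ± 0.52 (n = 3), and lowest in QC_LG at 5.11 ± 1.12 (n = 3), SUS_LG at 5.33 ± 0.104 (n = 3) and ILT_16C at 5.45 ± 0.114 (n = 3). The 3 GSC_LG arrays (6.91 to 7.68) did not overlap the 4 GSC_EG arrays (5.42 to 6.41) and stood just above the 4 EMB_LG arrays (5.78 to 6.90). The 4 groups in the middle of the mitochondrial order, EMB_LG, EMB_EG, VSC_EG and GSC_EG, spanned 6.04 to 6.31, less than the SD within any of them.

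**Figure D1:**
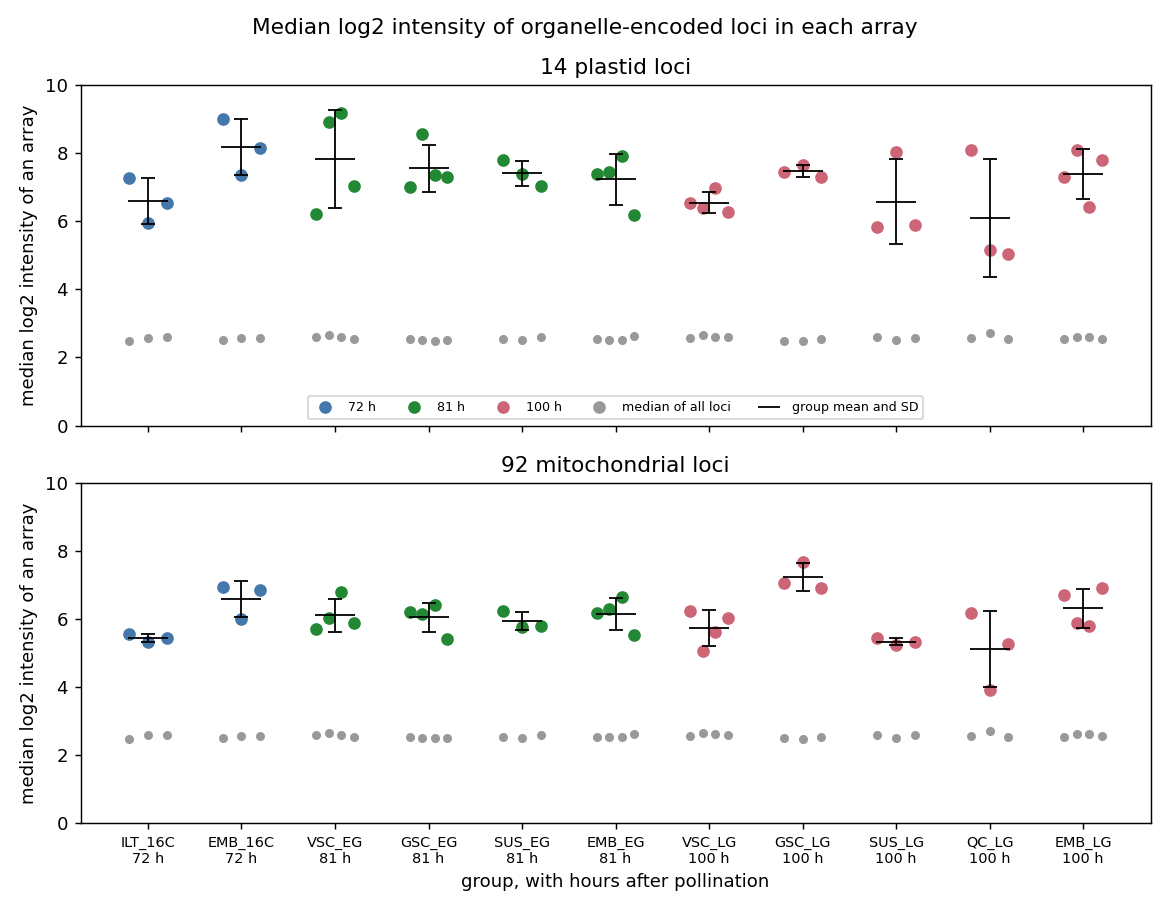
Median log2 intensity of the 14 plastid loci (upper panel) and the 92 mitochondrial loci (lower panel) in each of 38 arrays, by group, with the group mean and SD in black and the median of all loci in grey. GSC_LG has the highest group mean of the mitochondrial medians (7.22, with its 3 arrays from 6.91 to 7.68), and QC_LG 1 stands well above QC_LG 2 and 3 in both panels.

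Some arrays stood apart. In QC_LG the plastid medians were 8.08, 5.16 and 5.03 and the mitochondrial medians 6.16, 3.92 and 5.25 in replicates 1, 2 and 3, so replicate 1 lay at the level of the embryo arrays and the other two below all 4 of them. QC_LG 2 also had the narrowest spread of all loci, with an interquartile range of 1.03, against 2.10 in ILT_16C 1, the widest. Over the 38 arrays the mitochondrial median correlated with the plastid median (Pearson r = 0.64, and 0.563 with each group's mean taken out), with the interquartile range (0.553 and 0.575) and with the mean of the 97 loci of the chromosome 2 insertion (0.964 and 0.925). The plastid median correlated with the interquartile range at 0.477 (0.476 within groups). The points of each correlation come from the same arrays, and 34 of the 97 loci of the insertion have the very rows of organelle loci, so the coefficients are descriptions only. The part of the array spread in the differences below was tested only by entering it as a covariate.

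**Figure D2:**
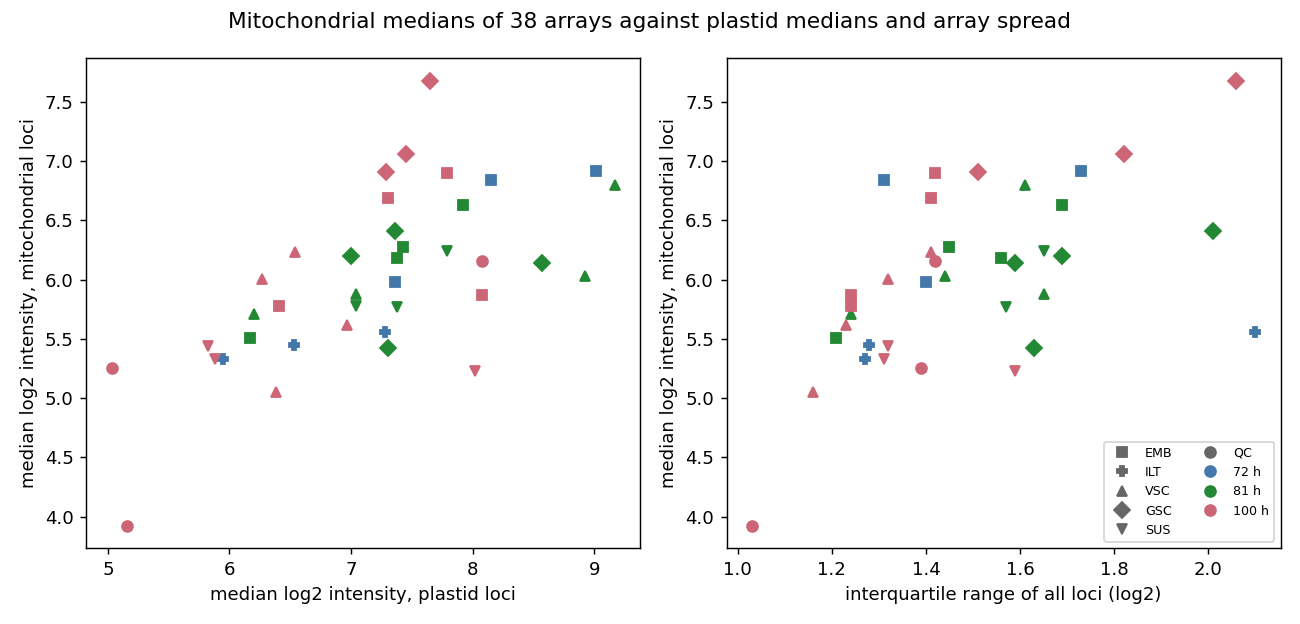
Median log2 intensity of the mitochondrial loci in 38 arrays against the median of the plastid loci (left) and against the interquartile range of all loci (right), with symbols for the cell type and colours for the time. Arrays high in one organelle tended to be high in the other (r = 0.64) and to have a wider spread (r = 0.553), and QC_LG 2 lies at the lower left of both panels.

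Cell identity was checked on 7 nuclear markers, and limma called 0 of them between a cell type and the embryo of its stage. SCR and JKD, transcription factors of the ground tissue, had their highest group means in GSC_LG, at 5.53 ± 0.39 and 4.85 ± 0.583 (SD, n = 3), and SCR was 1.68 above EMB_LG (SE 0.451, adjusted p = 0.0854); from GSC_EG to GSC_LG both rose, by 2.41 (SE 0.451, adjusted p = 0.00269) and 2.21 (SE 0.416, adjusted p = 0.00287). WOX5, the QC homeobox gene, was highest in QC_LG at 3.63 ± 0.593 (n = 3), 1.13 above EMB_LG (SE 0.385, adjusted p = 0.153). In GSC_EG, SCR stood at 3.12 ± 0.526 (n = 4), against 3.47 ± 0.793 (n = 4) in EMB_EG. WOX8, a suspensor marker, was near the median of all loci in SUS_EG (2.58 ± 1.05, n = 3) and SUS_LG (2.56 ± 0.8, n = 3), and as high in VSC_EG (2.65 ± 0.532, n = 4), against 1.46 ± 0.213 in EMB_EG (n = 4) and 1.94 ± 0.551 in EMB_LG (n = 4). Its highest group mean was that of EMB_16C (2.68 ± 0.649, n = 3). HB-3 (WOX9), its relative, averaged 3.43 ± 0.758 in SUS_EG (n = 3) against 2.31 ± 0.651 in EMB_EG (n = 4). At 100 h HB-3 averaged 3.47 ± 1.56 in SUS_LG (n = 3) against 3.26 ± 0.301 in EMB_LG (n = 4). GSC_LG had its highest mean (3.80 ± 0.322, n = 3). BHLH32 (TMO5), a vascular regulator, averaged 3.499 ± 0.705 in VSC_EG against 2.60 ± 1.01 in EMB_EG, and 3.63 ± 0.426 in VSC_LG against 3.38 ± 0.491 in EMB_LG (n = 4 each). Its mean was highest in QC_LG (3.86 ± 0.585, n = 3). MP, an auxin response factor of the vascular precursors, averaged 4.90 ± 0.646 in VSC_EG against 6.33 ± 1.03 in EMB_EG (n = 4 each, difference -1.43, SE 0.55, adjusted p = 0.178). It was also lower in VSC_LG (5.42 ± 0.381) than in EMB_LG (6.72 ± 1.26, n = 4 each), and highest in GSC_LG (7.445 ± 0.403, n = 3).

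Across all 11 groups, limma's F test on group means called 8 of 14 plastid loci (57.1%) and 22 of 92 mitochondrial loci (23.9%) at a Benjamini-Hochberg adjusted p under 0.05, against 9.56% of all loci. These counts take both loci of the shared rows of ATCG00970 and ATCG01160, ATMG00080 and ATMG00090, and ATMG00170 and ATMG00620. The row of ATCG00610 and ATMG00930 is counted in both genomes. Most loci were dimmer than these, and the share called among nuclear loci of like brightness was not taken. The smallest adjusted p among plastid loci belonged to ATCG00580 (8.12e-05) and ATCG00140 (9.47e-05), and among mitochondrial loci to the row of ATMG00930 and ATCG00610 (0.000147) and to ATMG01280 (0.000203). GSC_LG had the highest group mean for 62 of the 92 mitochondrial loci and for 1 of the 14 plastid loci. The highest plastid means were spread over EMB_16C (6 loci) and VSC_EG (4), and QC_LG had the lowest mean for 9 plastid and 32 mitochondrial loci. The mitochondrial count lay between 12 and 30 when single arrays were left out: it was 12 without GSC_LG 2, 13 without EMB_EG 1 or 2, and 14 without GSC_EG 1, GSC_EG 3 or GSC_LG 3.

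**Figure D3:**
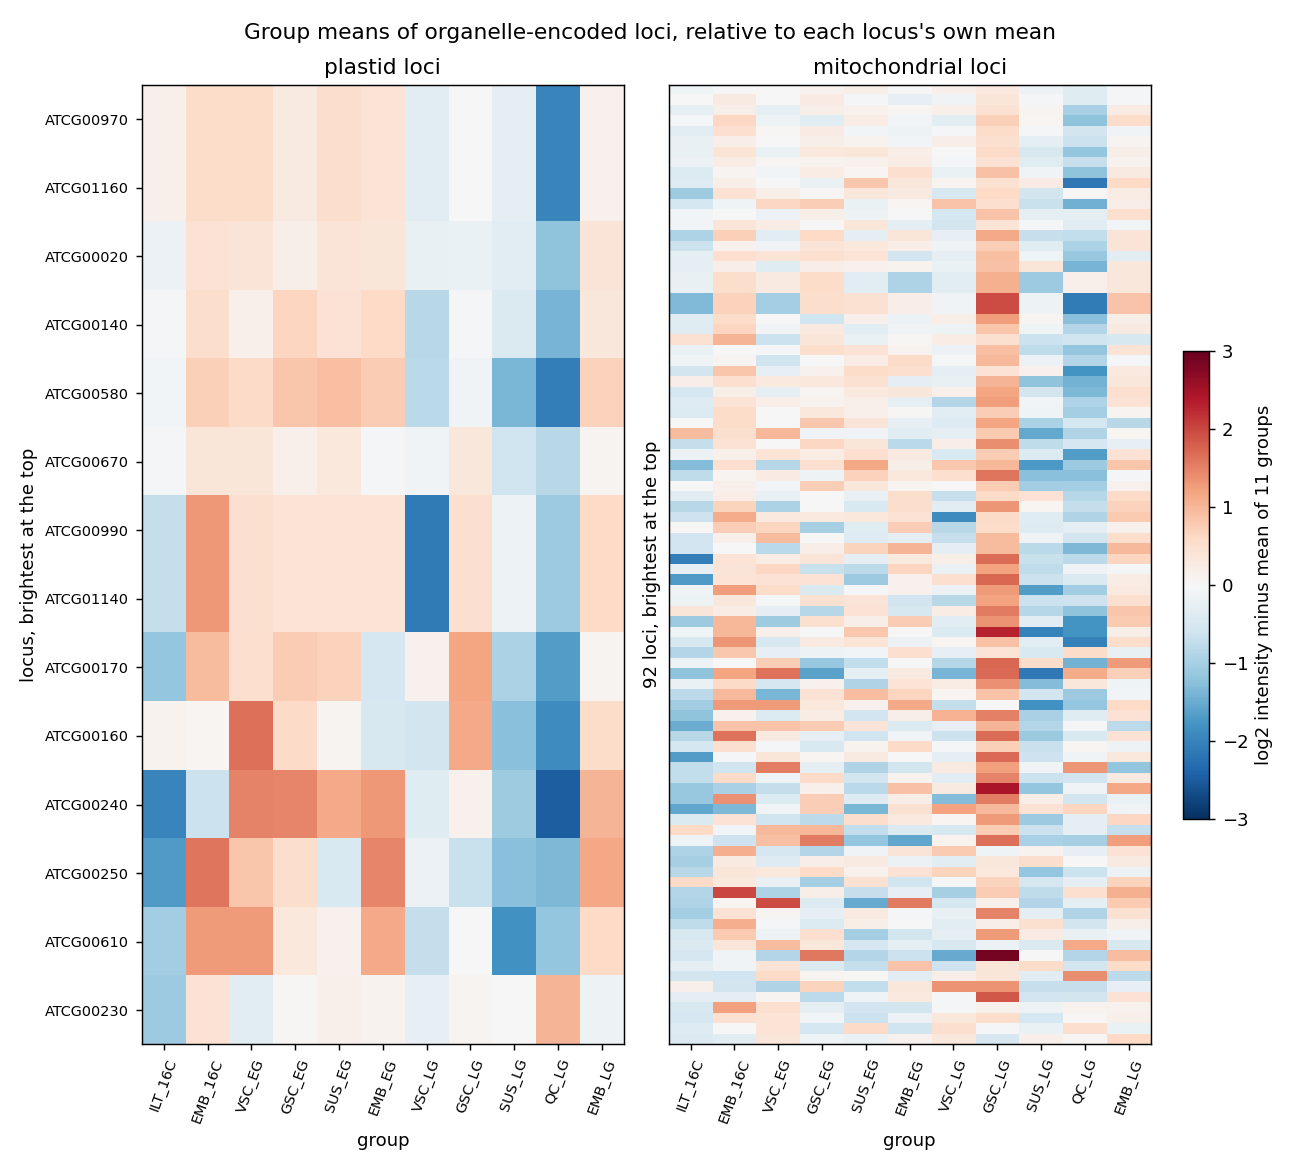
Group means of the 14 plastid loci (left) and the 92 mitochondrial loci (right), each shown as log2 intensity minus the locus's own mean over the 11 groups, with loci ordered from brightest to dimmest. The GSC_LG column is red for most mitochondrial loci, the highest group for 62 of 92, and the QC_LG column is blue for most plastid loci, the lowest for 9 of 14.

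In the comparisons, a locus was called at an adjusted p under 0.05 from limma over all 27826 loci. Counts at an unadjusted p under 0.05 in these comparisons are given without the share of all loci. So are counts of calls under array weights, with only the groups compared in the fit, or in any other alternative fit. They are descriptions and cannot be read as an excess over all loci. Cell types of 1 stage were compared with the same embryo arrays, so their differences share those arrays. Fewer nuclei of a type and less RNA per nucleus cannot be told apart in such bulk samples. Organelle transcripts are made outside the nucleus, while the RNA was labelled as nuclear. How much organelle RNA came with the nuclei of an array was not tested. A difference is therefore not shown to be one in transcript per cell.

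**Figure D4:**
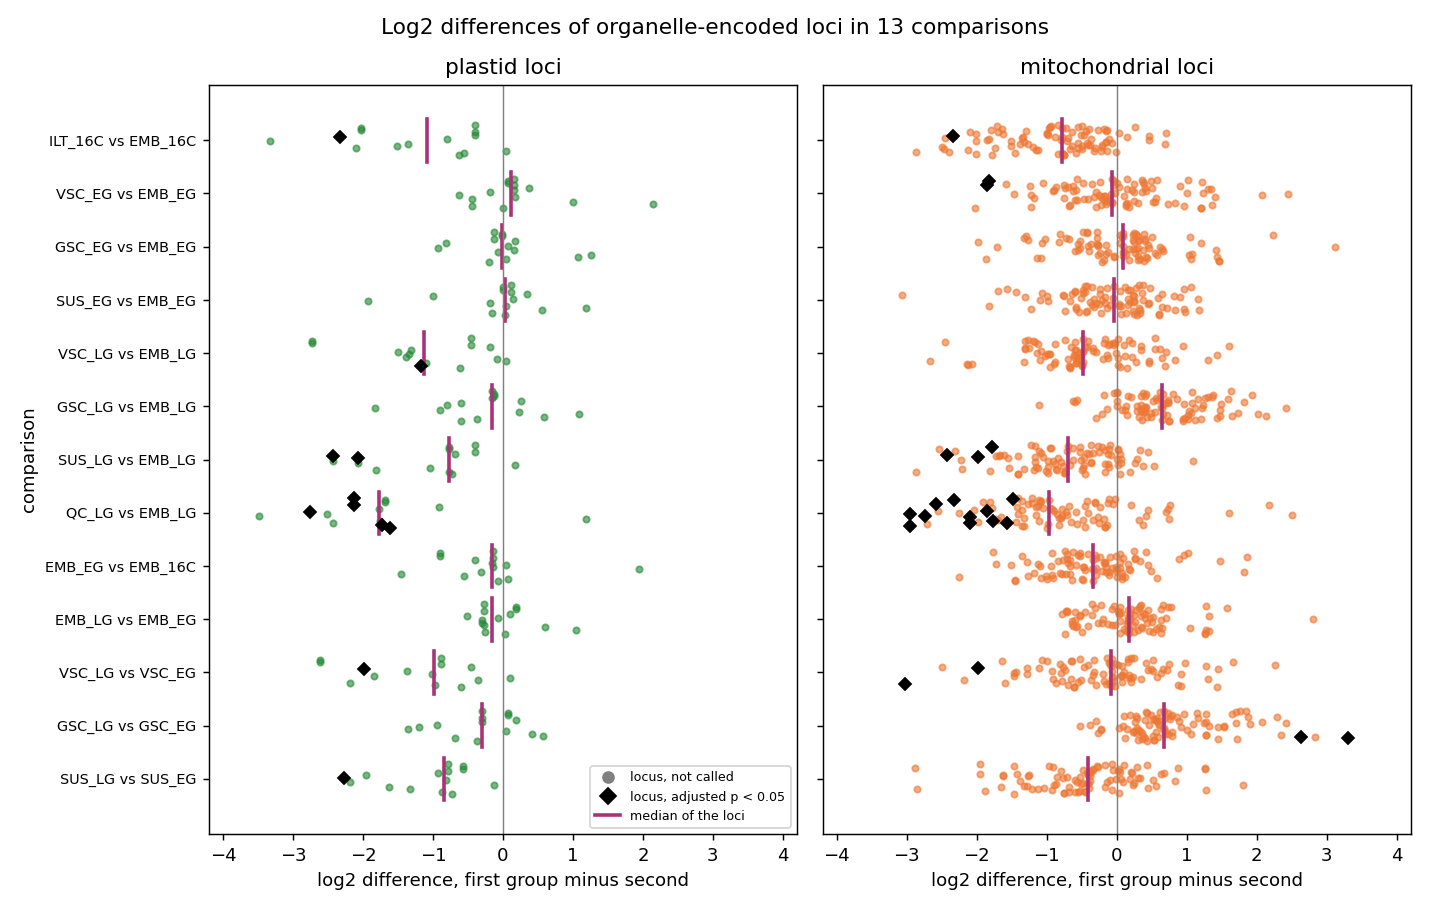
Log2 differences of the plastid loci (left) and the mitochondrial loci (right) in 13 comparisons, with 1 point per locus, black diamonds for loci with an adjusted p under 0.05 and a bar at the median. Called loci lie below 0 in each comparison that has any, except GSC_LG against GSC_EG, where 2 mitochondrial loci lie above it.

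QC_LG held the most changes against EMB_LG. Of the plastid loci 5 of 14 fell, of the mitochondrial loci 11 of 92, and 0 rose, which made 14 distinct rows; of all loci 0.765% were called lower and 0.733% higher. The median difference was -1.77 over the plastid loci (13 of 14 below 0) and -0.96 over the mitochondrial loci (80 of 92 below 0), against 0.018 over all loci. ATCG00580, the plastid locus of smallest adjusted p, read 9.40, 5.55 and 7.24 in the 3 QC_LG arrays and 10.06, 10.40, 10.11 and 10.07 in the 4 EMB_LG arrays. Every QC_LG array lay below every EMB_LG array, by little for replicate 1 and by the most for replicate 2, and the fitted fall was 2.76 (SE 0.455, adjusted p = 0.000818). ATCG00140, whose row is also that of a nuclear pseudogene, read 8.58, 8.42 and 9.31 against 10.21, 10.45, 10.70 and 10.63, a fall of 1.73 (SE 0.299, adjusted p = 0.00152) in which no arrays overlapped. ATCG00020, whose row is likewise shared, read 10.82, 8.26 and 9.94 against 11.18 to 11.34, a fall of 1.61 (SE 0.319, adjusted p = 0.00519). The last 2 called loci, ATCG00970 and ATCG01160, share 1 row, which fell by 2.13 with arrays that overlapped. The SE and p of limma rest on a spread pooled over the 11 groups, and these plastid loci varied more than that in QC_LG. The SD was 1.93 in QC_LG and 0.617 pooled for ATCG00580, 1.30 and 0.395 for ATCG00020, and 1.92 and 0.599 for ATCG00970. For these rows the SE is therefore smaller than the QC_LG arrays alone would give.

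Among mitochondrial loci, ATMG01280 showed the most even fall in QC_LG, reading 4.74, 4.16 and 4.74 against 7.36, 6.58, 6.89 and 6.68 in EMB_LG. The groups were well apart, and the fall of 2.33 (SE 0.407, adjusted p = 0.0016) was called under each of its 14 alternative settings. ATMG01090 read 4.09, 2.18 and 3.89 against 6.16, 6.34, 5.55 and 5.80 and fell by 2.58 (SE 0.553, adjusted p = 0.0103). The row of ATMG00170 and ATMG00620 read 5.96, 3.86 and 6.37 against 8.61, 7.91, 8.19 and 8.65, and it fell by 2.95 (SE 0.672, adjusted p = 0.017). In these 3 rows all QC_LG arrays were lower than all EMB_LG arrays, as in 17 of the 92 mitochondrial loci (5.03% of all loci were lower without overlap). Of the 11 mitochondrial calls, 3 belonged to loci with a row identical to a nuclear one, 6 to loci with an r over 0.9 to some locus of the insertion and 2 to the remaining 39. Such an r does not show that the 2 loci are copies of each other. The 16 calls depended on single arrays, with 3 left without QC_LG 2, 8 without QC_LG 3, 8 without EMB_LG 4 and 29 without QC_LG 1, and 1 left when only these 2 groups were fitted. The median differences were below 0 in each of those fits; the plastid one was -2.91 without QC_LG 1 and the mitochondrial one -0.595 without QC_LG 2.

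In the suspensor at 100 h, 2 plastid and 3 mitochondrial loci fell against EMB_LG and 0 rose, where 0.428% of all loci were called lower and 0.539% higher. ATCG00580 read 7.71, 8.34 and 8.22 in SUS_LG, below the 4 EMB_LG arrays given above, and fell by 2.07 (SE 0.455, adjusted p = 0.0172). The row shared by ATCG00610, ATMG00930 and the tryptophan tRNA gene read 3.26, 3.06 and 2.81 against 4.07, 5.65, 6.39 and 5.76, and fell by 2.43 (SE 0.504, adjusted p = 0.011). All 3 suspensor values were the lower ones, the nearest by under 1 log2 unit. ATMG01280 fell by 1.78 (SE 0.407, adjusted p = 0.0242) and ATMG00840 by 1.98 (SE 0.501, adjusted p = 0.0433). The medians were -0.77 for plastid loci (13 of 14 below 0) and -0.70 for mitochondrial loci (77 of 92 below 0), with -0.02 for all loci. The count of 5 was 0 without SUS_LG 2, 1 without SUS_LG 3, 2 without EMB_LG 3, 3 without SUS_LG 1 or EMB_LG 1, 2 when only these 2 groups were fitted, and 8 when the array spread entered the fit. Of 8 seed coat markers 2, the flavonoid regulators TT2 and TT8, were called higher in SUS_LG than in EMB_LG. The mean of the 8 ran from 5.05 to 5.85 in SUS_LG against 4.16 to 4.65 in EMB_LG. At 81 h it ran from 4.59 to 5.36 in SUS_EG and from 4.49 to 5.46 in EMB_EG. From SUS_EG to SUS_LG 0 of the 8 were called. Of 9 endosperm markers 0 were called between SUS_LG and EMB_LG. The part of maternal nuclei in the lower organelle signal was not tested.

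At 81 h, 0 loci of either genome were called by limma between the suspensor and EMB_EG (0.198% of all loci were), 1 plastid and 5 mitochondrial loci had an unadjusted p under 0.05, and the medians were 0.03 and -0.04. Between the stages, from SUS_EG to SUS_LG, 1 plastid locus fell and 0 mitochondrial loci were called, where 0.313% of all loci fell and 0.359% were called either way. That locus was ATCG00580, which read 10.01, 10.75 and 10.32 at 81 h and fell by 2.27 (SE 0.486, adjusted p = 0.0215). It no longer passed in 5 of 13 alternative settings, among them each fit without SUS_EG 2, SUS_EG 3, SUS_LG 1 or SUS_LG 3. All 14 plastid loci stood lower at 100 h, with a median of -0.84 (-1.26 without SUS_LG 2), and the arrays of 9 did not overlap (6.14% of all loci were lower without overlap). In the embryo as a whole the same locus read 10.22 ± 0.343 at 81 h and 10.16 ± 0.162 at 100 h (SD, n = 4 each). The suspensor's own shift relative to the embryo's was -2.21 (SE 0.643), which did not pass (adjusted p = 0.368).

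**Figure D5:**
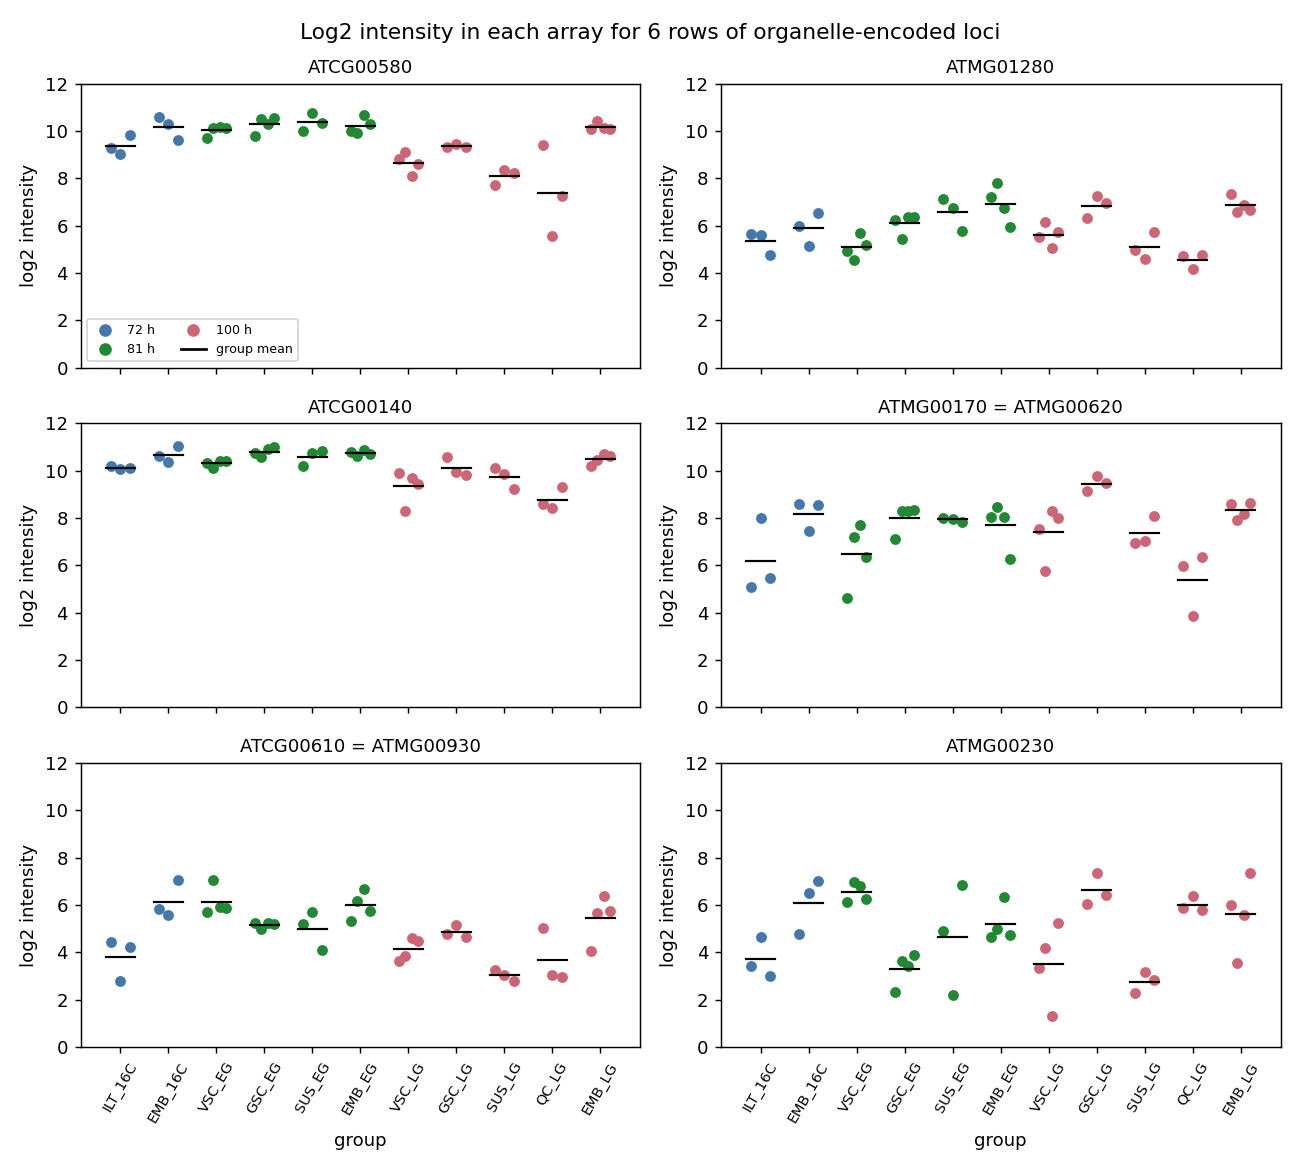
Log2 intensity of 6 rows of organelle-encoded loci in each of 38 arrays, by group, with the group mean as a bar and colours for the time. ATCG00580 averages 10.18, 10.22 and 10.16 in the embryo groups at the 3 times and less in SUS_LG and QC_LG (8.09 and 7.40), while ATMG00230 averages 6.54 in VSC_EG and 6.62 in GSC_LG but 3.52 in VSC_LG and 3.32 in GSC_EG.

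In vascular nuclei at 81 h, 2 mitochondrial loci and no plastid locus fell against EMB_EG, where 1.19% of all loci were called lower, so the share of mitochondrial loci (2.17% called either way) was that of the background (2.15%). ATMG01280 read 4.92, 4.55, 5.71 and 5.19 in VSC_EG and 7.22, 7.79, 6.73 and 5.92 in EMB_EG. The groups did not overlap, and the fall was 1.82 (SE 0.376, adjusted p = 0.00776). ATMG01090 averaged 4.09 ± 0.826 in VSC_EG and 5.94 ± 0.681 in EMB_EG (SD, n = 4 each), a fall of 1.85 (SE 0.512, adjusted p = 0.0474). The plastid locus of smallest p, ATCG00160, stood 2.14 higher (SE 0.648, adjusted p = 0.0724), with arrays that overlapped, and was called higher in 3 of 15 alternative settings. The medians were 0.11 for plastid and -0.07 for mitochondrial loci. With only these 2 groups in the fit 0 of the 2 calls were made, with array weights 6 loci were called, 4 of them higher (1 plastid and 3 mitochondrial), and without VSC_EG 2, VSC_EG 3, EMB_EG 1, EMB_EG 2 or EMB_EG 3 there was 1, against 4 without VSC_EG 4, 2 of them higher.

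At 100 h, 13 of 14 plastid loci in the vascular group lay below EMB_LG, with a median of -1.13, and 1 was called (0.374% of all loci were called lower, 0.787% either way). That locus, ATCG00140, read 9.90, 8.30, 9.71 and 9.43 in VSC_LG, each below the lowest EMB_LG array at 10.21, and fell by 1.16 (SE 0.277, adjusted p = 0.0334). It was lost in 7 of 15 alternative settings, among them quantile normalization, only these 2 groups in the fit, and each of VSC_LG 2, VSC_LG 4, EMB_LG 2, EMB_LG 3 and EMB_LG 4 left out; without VSC_LG 1 there were 2 calls. The plastid median was -0.747 without VSC_LG 3. Of the mitochondrial loci 0 were called in limma and 11 had an unadjusted p under 0.05, all of them lower, with 66 of 92 below 0 and a median of -0.48 (-0.265 without EMB_LG 4). From VSC_EG to VSC_LG the shared row of ATCG00610 and ATMG00930 fell by 1.99 (SE 0.467, adjusted p = 0.0264), from 5.69, 7.06, 5.93 and 5.87 to 3.66, 3.83, 4.63 and 4.50. The mitochondrial locus ATMG00230, whose row is also that of a serine tRNA gene on chromosome 2, fell by 3.02 (SE 0.748, adjusted p = 0.0371), from 6.14, 6.96, 6.80 and 6.26 to 3.35, 4.19, 1.33 and 5.23. In both rows no arrays overlapped, and 0.5% of all loci were called lower. The plastid median was -0.99 (13 of 14 lower) and the mitochondrial median -0.08. The 3 calls numbered 0 without VSC_EG 2, VSC_EG 3 or VSC_LG 2, 1 without VSC_LG 1, 9 without VSC_EG 1, 8 under array weights and 1 when the array spread entered the fit.

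Ground tissue at 100 h was the group in which most mitochondrial loci stood higher than in the embryo: 83 of 92 lay above EMB_LG, with a median of 0.65 against -0.1 over all loci. None of them was called (0.449% of all loci were), and 10 were higher and 1 lower at an unadjusted p under 0.05. The arrays of 19 mitochondrial loci did not overlap upwards, where 5.76% of all loci did not. ATMG00400, the locus of smallest p, read a mean of 8.07 ± 0.329 (SD, n = 3) against 6.05 ± 1.04 (n = 4), a difference of 2.02 (SE 0.614) that did not pass (adjusted p = 0.144). Plastid loci did not share the direction, with 10 of 14 below 0, a median of -0.16 and 0 called. The arrays of GSC_LG were wider in spread than those of EMB_LG, with mean interquartile ranges of 1.79 and 1.33, and with the spread as a covariate 60 of 92 mitochondrial loci lay above 0 and the median was 0.245. It was 0.727 with each array centred on its median and 0.481 with quantile normalization.

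From GSC_EG to GSC_LG, groups of nearly equal spread (1.73 and 1.79), 86 of 92 mitochondrial loci stood higher, with a median of 0.67, and 2 rose, where 0.938% of all loci did. With the spread as a covariate the median was 0.624 and 85 of 92 lay above 0. ATMG00230 read 2.33, 3.63, 3.42 and 3.89 at 81 h and 6.06, 7.37 and 6.43 at 100 h. All late arrays were higher by over 2 log2 units, and the rise was 3.30 (SE 0.807, adjusted p = 0.0267). ATMG00240, whose row is that of the nuclear pseudogene AT2G07729, read 1.37, 1.41, 1.46 and 2.53 at 81 h and 2.57, 6.27 and 4.16 at 100 h. These groups all but touch, and the rise of 2.64 (SE 0.668, adjusted p = 0.0336) was lost in 7 of 14 alternative settings. The arrays of 23 mitochondrial loci did not overlap upwards, where 6.03% of all loci did not. The 3 classes of mitochondrial loci moved alike: the median was 0.576 for the 33 with a row identical to a nuclear one, 0.685 for the 20 with an r over 0.9 to some locus of the insertion and 0.672 for the other 39. The 2 calls came to 0 without GSC_EG 1, GSC_EG 2, GSC_LG 2 or GSC_LG 3, to 5 without GSC_LG 1, to 0 with quantile normalization and to 7 with array weights. Between ground tissue and embryo at 81 h, limma called 0 loci of either genome (1.12% of all loci were called), with 1 plastid and 13 mitochondrial loci at an unadjusted p under 0.05. With array weights 4 mitochondrial loci were called higher, and 2 with only these groups in the fit. The share of all loci called in those 2 fits was not taken, so these counts are not an excess.

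In inner lower tier nuclei at the 16-cell stage, 13 of 14 plastid loci and 85 of 92 mitochondrial loci stood below EMB_16C, with medians of -1.08 and -0.78 against -0.016 over all loci. The 1 row called was the one shared by ATCG00610, ATMG00930 and the tryptophan tRNA gene, so 1 plastid and 1 mitochondrial locus were called lower and 0 higher, where 0.155% of all loci were lower and 0.295% higher. It read 4.43, 2.79 and 4.22 in ILT_16C and 5.81, 5.58 and 7.05 in EMB_16C. No arrays overlapped, and the fall was 2.33 (SE 0.539, adjusted p = 0.0376), lost in 8 of 13 alternative settings. It was lost, among others, when any array of the 2 groups but ILT_16C 1 was left out, with array weights and when only these 2 groups were fitted; the count was 3 without ILT_16C 1. At an unadjusted p under 0.05, 6 plastid and 22 mitochondrial loci were lower and 0 higher, and the arrays of 22 mitochondrial loci were lower without overlap (6.15% of all loci were). ILT_16C 1 had the widest spread of all 38 arrays. The plastid median was -0.679 without ILT_16C 1 and -0.607 without EMB_16C 1.

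In the embryo as a whole, limma called 0 organelle loci between 72 h and 81 h and 0 between 81 h and 100 h, where 0.187% and 0.111% of all loci were called. At an unadjusted p under 0.05, 1 plastid and 9 mitochondrial loci were lower and 1 mitochondrial locus higher at 81 h than at 72 h, and 5 mitochondrial loci were higher at 100 h than at 81 h. The mitochondrial medians were -0.33 for the first step, with 65 of 92 lower, and 0.18 for the second, with 63 of 92 higher. Single arrays set these sizes: the first was -0.166, -0.569 and -0.212 without EMB_16C 1, 2 or 3 and -0.10 without EMB_EG 4. The second was -0.026 without EMB_EG 4, 0.064 without EMB_LG 1, 0.066 without EMB_LG 4, 0.298 without EMB_LG 3 and 0.0116, with 47 of 92 higher, under array weights. The plastid medians were -0.15 and -0.16. For vascular cells, ground tissue and suspensor, a change between 81 h and 100 h in the difference from the embryo was tested. No organelle locus passed in any of the 3 (limma), where 0%, 0% and 0.00719% of all loci did, with 5 plastid and 12 mitochondrial loci at an unadjusted p under 0.05 in vascular cells, 0 and 11 in ground tissue and 4 and 12 in the suspensor. Of all loci 7.78%, 6.55% and 6.44% had such a p. The largest shift of ATMG00230 was -3.48 (SE 1.06) in vascular cells, which did not pass (adjusted p = 0.384), and it was 2.84 (SE 1.1) in ground tissue (adjusted p = 0.64). The 2 shifts have opposite signs, and neither was called.

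Both genomes depend on nuclear genes, and these were set beside them. Of 27 nuclear genes of photosynthesis, 18 fell in QC_LG, 14 in SUS_LG, 10 in VSC_LG and 7 in GSC_LG against EMB_LG, and 0 rose. Of all loci 0.765%, 0.428% and 0.374% were called lower in QC_LG, SUS_LG and VSC_LG, and 0.449% either way in GSC_LG. In GSC_LG the median of the list was -1.38, where the plastid loci had -0.16. Against EMB_EG 6 of the list fell in VSC_EG (median -0.91) and 2 in GSC_EG (median -0.503), where the plastid loci had medians of 0.11 and -0.008, and 0 fell in SUS_EG. Of all loci 1.19% were called lower in VSC_EG and 1.12% either way in GSC_EG. In QC_LG the median of the photosynthesis list was -1.92, and the photosystem I gene PSAF fell by 2.48 (SE 0.362, adjusted p = 0.000234) and the oxygen-evolving gene PSBO1 by 2.23 (SE 0.405, adjusted p = 0.00246). From SUS_EG to SUS_LG 10 of the 27 fell (median -1.79), PSAF by 2.35 (SE 0.387, adjusted p = 0.00164). The list also fell in the other cell types, with 4 called from VSC_EG to VSC_LG (median -1.05) and 3 from GSC_EG to GSC_LG (median -1.02). Of all loci 0.313% were called lower in the suspensor step and 0.5% in the vascular step. Of 19 nuclear genes of plastid transcription, among them polymerase, sigma factor and polymerase-associated protein genes, 0 were called in any of the 13 comparisons, with medians between -0.28 and 0.295. The list for mitochondrial respiration held 20 nuclear genes, MGP3 among them, and at most 1 was called in a comparison. ATP3, the gamma subunit of the ATP synthase, fell by 2.55 (SE 0.563, adjusted p = 0.013) in QC_LG. The other calls were MPPBETA in VSC_EG and AT5G13430 in VSC_LG. In GSC_LG against EMB_LG the respiration list had a median of 0.0059, where the mitochondrial loci had 0.65. Over the 38 arrays the plastid median correlated with the mean of the photosynthesis list at r = 0.395, and at 0.0699 with group means taken out. The mitochondrial median correlated with the respiration list at 0.571 and 0.487 and with the mean of 9 endosperm markers at -0.502 and -0.591, all over the same arrays and without a test. That endosperm mean was dim, from 1.91 to 2.68, where the median of all loci ran from 2.47 to 2.71. The part of the array spread in its coefficients was not tested. For the plastid median they were -0.209 and -0.169. With the mean of 8 seed coat markers the mitochondrial median had -0.282 and 0.0547, and the plastid median 0.0539 and 0.278.

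By pattern over the 11 group means, the loci most like ATCG00580 were the nuclear genes RBCS1B, a small subunit of Rubisco (Pearson r = 0.959), and PSAF (0.959), and AT3G32990 (0.95), the nuclear pseudogene whose row is that of ATCG00140. Those most like the row of ATMG00930 were ATH13 (0.903), AT3G20362 (0.902) and the plastid locus ATCG00250 (0.901). All of these loci were picked as the highest r in a search of 27826 loci over only 11 means. How high an r such a search gives by chance was not tested, so the coefficients are descriptions only. Within groups, with each group's mean taken out, loci of 1 genome moved together only weakly across arrays: the median correlation between 2 loci was 0.234 for plastid rows, 0.155 for mitochondrial rows and 0.166 between the genomes, with 0.236 for mitochondrial loci next to each other in locus number. It was 0.134 between nuclear loci brighter than the median of the organelle loci. That nuclear set includes loci of the chromosome 2 insertion, some with the very rows of organelle loci, so it is not a separate baseline.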

How the data were processed

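RNA from nuclei of 11 groups was measured on 38 one-colour arrays. The deposited values are intensities on a linear scale. Per the submitters' processing notes the authors used RMA; neither its version nor how probe sets were defined is given in the sources used here. RMA corrects background, scales arrays to like distributions and summarises probes, so a change in the total RNA of a nucleus is lost, and signal shared by organelle and nuclear copies is not separated. No array column was without a sample (0). Values were taken to log2 with no added constant. Groups were compared with limma 3.58.1 in R 4.3.3, with all 38 arrays and 11 group means in 1 fit (27 residual and 6.79 prior degrees of freedom), Benjamini-Hochberg adjustment over 27826 loci and a threshold of 0.05, two-sided. The number of arrays limits the precision, dim loci varied more between arrays than bright ones, and no detection calls were used. The highest correlation between any 2 arrays was 0.896, so none was counted as a duplicate.

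The organelle loci and the lists of nuclear genes were chosen with earlier results of these data known. The chromosome 2 insertion was taken as the loci that lie, in the order of the TAIR10.1 gene table, between AT2G07660 and AT2G07680, in place of a range of locus numbers planned first that also took in loci outside it, and the functional classes planned for organelle loci could not be applied because 0 of the 106 identifiers matched a symbol. Named loci are, per genome, the 6 brightest, the 3 dimmest and the 6 of smallest F test p, and per comparison up to 3 called rises and 3 called falls, or the locus of smallest p; the cell identity genes; and the 3 loci most like the locus of smallest F test p by the correlation of group means. A few of them are not printed, and those printed for counts of 5 or fewer beyond this rule were chosen after their values were seen.

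Alternatives were quantile normalization, centring on array medians, array weights, a filter at the 25th percentile of a locus's mean, a fit of only the groups compared, a block for the replicate number, the array's interquartile range as a covariate and leaving out each array in turn. On simulated data of 27826 loci, QC_LG against EMB_LG recovered 82 of 100 loci with a 4-fold and 7 of 100 with a 2-fold change with 3 false calls, and GSC_LG against EMB_LG 60 and 5 with 3. Apart from the planted changes, all simulated arrays had the same mean and pooled spread per locus. Both comparisons set 3 arrays against 4, so these runs differ only in the random draw. The wider spread of some loci in QC_LG was not simulated. Same-numbered arrays of the groups compared had deviations that correlated between -0.114 and 0.208, so the numbers were not taken as pairs. Python 3.11.15 and matplotlib 3.10.9 made the plots.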

Additional observations from a re-analysis of the deposited data

Results flagged for a closer look

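In groups of 4 arrays, each named locus and the median of each genome were tested for a single array far from the other three; 9 of 180 tests were past Dixon's limit, about the 1 in 20 that chance gives, and no cause was tested. The row of ATCG00970 and ATCG01160 read 11.8 in VSC_EG 3, against 11.5 in the nearest array. ATCG00580 read 9.71 in VSC_EG 1 (nearest 10.1) and 10.4 in EMB_LG 2 (nearest 10.1). ATMG01300 read 3.69 in GSC_EG 4 (nearest 1.89) and 2.88 in EMB_EG 2 (nearest 2.01). In GSC_EG, ATMG01280 read 5.44 in replicate 2 (nearest 6.25), ATMG00170 read 7.10 in replicate 1 (nearest 8.30) and ATMG00240 read 2.53 in replicate 4 (nearest 1.46).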

How the results depend on the processing

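None of the loci followed under the alternatives (up to 3 called per genome, direction and comparison, or the one of smallest p) changed direction; loci beyond these were not followed. Medians near 0 changed sign in some fits: both of VSC_EG, GSC_EG and SUS_EG against EMB_EG and of EMB_LG against EMB_EG, and the mitochondrial one of VSC_LG against VSC_EG. With quantile normalization the counts of called organelle loci were 1 for VSC_EG and 0 for VSC_LG against the embryo and 0 for GSC_LG against GSC_EG. With array weights they were 0 for ILT_16C, 6 for VSC_EG, 4 for GSC_EG and 3 for VSC_LG against the embryo, 8 for VSC_LG against VSC_EG and 7 for GSC_LG against GSC_EG. With the array spread as a covariate they were 2 for VSC_LG and 8 for SUS_LG against the embryo and 1 for VSC_LG against VSC_EG. With only the groups compared in the fit, which leaves few arrays to estimate the spread, they were 0 for ILT_16C, 0 for VSC_EG, 2 for GSC_EG, 2 for SUS_LG and 1 for QC_LG against the embryo, and 4 for GSC_LG against GSC_EG. With the replicate number as a block the count for ILT_16C was 0, and no other count of calls moved by over 1.5 times; same-numbered arrays share only a number here. Leaving out single arrays gave 0 to 3 calls for ILT_16C, 1 to 4 for VSC_EG, 0 to 2 for VSC_LG, 0 to 5 for SUS_LG and 3 to 29 for QC_LG against the embryo, 0 to 1 for EMB_EG against EMB_16C, 0 to 9 for VSC_LG against VSC_EG, 0 to 5 for GSC_LG against GSC_EG and 0 to 1 for SUS_LG against SUS_EG. It gave 6 to 11 plastid and 12 to 30 mitochondrial loci in the F test, and a plastid median from -2.91 to -1.46 in QC_LG, the lowest without QC_LG 1. The cause of these shifts was not tested. Centring on array medians and the filter on dim loci moved none of these counts by over 1.5 times. Loci near background and groups of 3 or 4 arrays limit what could be called: few 2-fold changes were recovered in simulated data.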
